A study of Homo sapiens with 8 samples.

Results

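Mitochondria divide and join continuously, and the core proteins of both processes are encoded by 8 genes that were taken here as a set: DNM1L, FIS1, MFF, MIEF1, MIEF2, MFN1, MFN2 and OPA1. They were chosen by name because they act in the same process as MTFP1, a gene whose promoter is bound by ZBTB48, and the rule uses no measured value, although earlier results of these data were known when the set was proposed. All 8 were found among 62062 annotated genes, of which 19970 were protein-coding (GENCODE 44, GRCh38, chromosomes 1 to 22 and X). The data are FAIRE-seq peak lists from U2OS, a human osteosarcoma cell line. FAIRE-seq recovers the DNA that formaldehyde does not cross-link to nucleosomes, so a peak marks open chromatin. It measures neither RNA nor protein.

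The 8 libraries came from 4 clones. WT_4 and WT_5 were wild type (WT), and KO_C5 and KO_D2 lacked ZBTB48 (knockout, KO), which binds telomeric repeats and a number of promoters through its zinc fingers. From every clone, 1 library was made without treatment and 1 after exposure to 250 U/ml interferon gamma (IFNγ), for 24 h per the labels, although the study's legends give a longer exposure. The clones came from earlier work, and a peak list holds no direct check of the knockout. The lists held 16730 (KO_D2, untreated) to 37533 (WT_5, IFNγ) peaks, so measures are given as ranks within a list or beside the same measure over all promoters.

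In fission, the cytosolic GTPase DNM1L is recruited to the outer mitochondrial membrane, where it assembles into rings that constrict the organelle. FIS1, MFF, MIEF1 and MIEF2 are outer membrane proteins that act as its receptors or adaptors. In fusion, the GTPases MFN1 and MFN2 tether and join outer membranes, and OPA1 joins inner membranes and keeps the cristae in shape. MTFP1 is an inner membrane protein that promotes fission.

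A promoter peak was a peak within 1 kb of any annotated transcription start site (TSS) of a gene, and where a list held several, the one with the highest −log10 p was used. Every member had a promoter peak in all 8 lists. The same was true of 10395 of the 19970 protein-coding genes (52.1%), while 26.2% had none in any list and 21.7% had one in 1 to 7 lists. The 8 genes thus lay in the share of the genome whose promoters were open in both genotypes and both treatments.

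The sequences just upstream of the starts are shown for the members whose peaks differed most in strength or position. MFN1 had the weakest and most variable peak, FIS1 had peaks at separate starts, and OPA1 had the next widest range. MIEF2 held TTAGGG, the telomeric hexamer that ZBTB48 binds, in the window of its main start (windows of 300 bases, narrower than most of the peaks, were searched). Each stretch is 150 bases of GRCh38, written 5′ to 3′ on the gene's strand and trimmed so that it holds no annotated exon of the gene. They lie at chr3:179347559-179347708 (MFN1, plus strand), chr7:101245082-101245231 (FIS1 canonical start, minus strand), chr7:101252317-101252466 (FIS1 upstream start, minus strand), chr3:193592994-193593143 (OPA1, plus strand) and chr17:18260447-18260596 (MIEF2, plus strand). Capitals mark matches to the hexamers TTAGGG and GGGCGG (an SP1 box), to CCGGAAGT (an ETS site) and to GCGCATGC (an NRF1 core), on either strand. In OPA1 the matches to GCGCATGC on opposite strands overlap.
MFN1: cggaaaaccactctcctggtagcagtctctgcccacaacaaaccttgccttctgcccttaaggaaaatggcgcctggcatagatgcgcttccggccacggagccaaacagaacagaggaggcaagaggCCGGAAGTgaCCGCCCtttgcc
FIS1 canonical start: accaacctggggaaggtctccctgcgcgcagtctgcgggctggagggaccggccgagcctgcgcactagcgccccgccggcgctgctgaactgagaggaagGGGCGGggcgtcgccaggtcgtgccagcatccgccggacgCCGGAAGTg
FIS1 upstream start: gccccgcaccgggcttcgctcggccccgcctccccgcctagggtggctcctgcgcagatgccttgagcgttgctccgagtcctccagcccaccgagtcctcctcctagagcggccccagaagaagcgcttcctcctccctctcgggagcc
OPA1: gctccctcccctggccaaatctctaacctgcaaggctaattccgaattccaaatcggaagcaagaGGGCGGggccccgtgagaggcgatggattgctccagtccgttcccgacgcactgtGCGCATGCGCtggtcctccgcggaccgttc
MIEF2: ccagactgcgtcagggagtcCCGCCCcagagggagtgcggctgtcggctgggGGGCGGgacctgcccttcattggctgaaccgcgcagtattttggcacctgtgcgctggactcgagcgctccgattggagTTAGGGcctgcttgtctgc

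Motifs were counted in the RefSeq promoter windows of the members (GRCh38.p14, 250 bases before to 50 after a start, 8 of 8 symbols matched), beside the share of all 27305 genes with a window that hold the same letters. GGGCGG was present in 7 of the 8 members (48.3% of genes), all except MFN2. CCGGAAGT was present in FIS1, MIEF1 and MFN1 (4.95% of genes), with its first base 9, 20 and 22 bases before the start. The FIS1 matches lie in the window of its canonical start, and the window of its stronger upstream start held no match to any motif searched. OPA1 alone held GCGCATGC (3.68%). TTAGGG was found in MIEF2, 84 bases before the start, and in a downstream alternative window of MFF that carried no peak (10.9% of genes). The window of MTFP1, whose promoter ZBTB48 binds, held no TTAGGG, so a bound promoter need not hold the hexamer in this window. Other promoters bound by ZBTB48 were not examined for it. The study's control hexamer GTGAGT was found in MFN2 (15.1%). Neither AAGATGGCG, a YY1 site (2.14%), nor TTCNNNGAA, the palindrome bound by STAT factors downstream of IFNγ (9.38%), was found in any member's window. A match describes these letters only, and no match says nothing of a factor. MFN2 had 37 CpG dinucleotides in its window and MFN1 had 10, the extremes among the members' main windows, against a median of 14.0 over all windows.

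**Figure D1:**
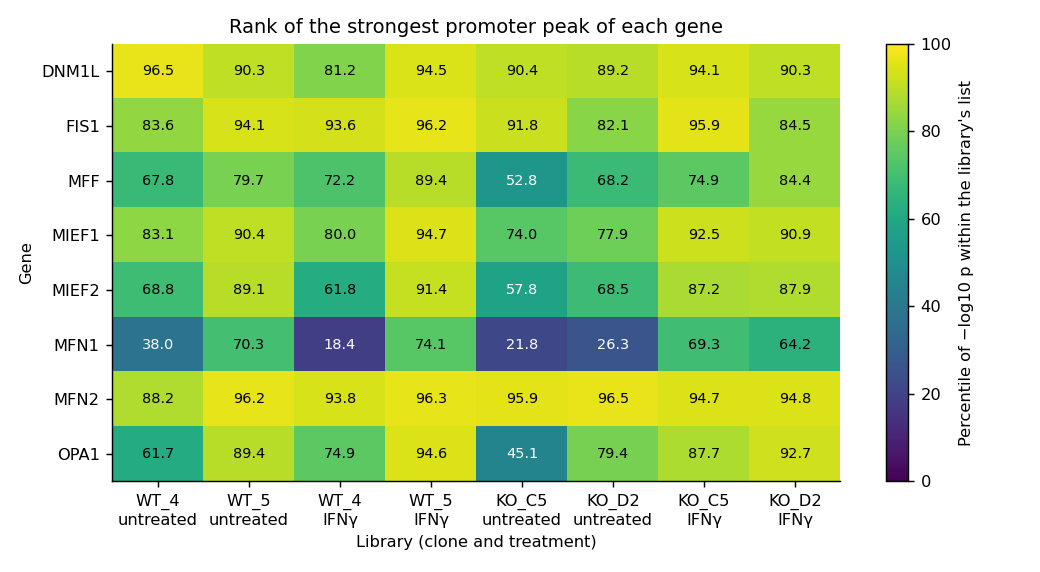
Rank of the strongest promoter peak of each of the 8 genes (rows) in each of the 8 libraries (columns), as the percentile of −log10 p within that library's own list, printed in each cell and coloured from 0 to 100. MFN2 stayed between 88.2 and 96.5 throughout, while MFN1 ran from 18.4 to 74.1 and was the lowest of the 8 genes in every library.

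Among the fission genes, DNM1L had one of the strongest peaks. It lay over a cluster of annotated starts at chr12:32678936-32679945, with its summit 53 to 89 bases upstream of the canonical TSS. Its fold enrichment, the ratio of fragments stacked at the summit to those expected from the local background after 1 is added to both, was 86.6 (WT_4) and 34.1 (WT_5) in untreated WT, 29.0 and 59.4 in the same WT clones after IFNγ, 50.4 (KO_C5) and 41.0 (KO_D2) in untreated KO, and 55.9 and 34.9 in the same KO clones after IFNγ. The highest and the lowest value thus came from the same clone, WT_4, and every KO value lay between them. By percentile of −log10 p within each list, the peak ranked between 81.2 and 96.5.

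FIS1 had separate open regions at starts 7235 bases apart, and both were present in every library. The region at the canonical TSS (chr7:101244257-101245297) had folds of 11.1 to 35.3. The region at the upstream start (chr7:101252209-101252708) was the stronger in all 8 lists, with its summit 7352 to 7364 bases upstream of the canonical TSS. Its folds were 43.3 (WT_4) and 40.1 (WT_5) in untreated WT, 43.0 and 60.4 in WT after IFNγ, 44.0 (KO_C5) and 27.7 (KO_D2) in untreated KO, and 49.4 and 22.2 in KO after IFNγ. KO_D2 was lowest under both treatments. KO_C5 lay above both WT clones without treatment and between them after IFNγ. A further weak peak, 4703 bases downstream of the canonical TSS with a fold of 3.80, was listed in WT_5 after IFNγ and in no other library.

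**Figure D2:**
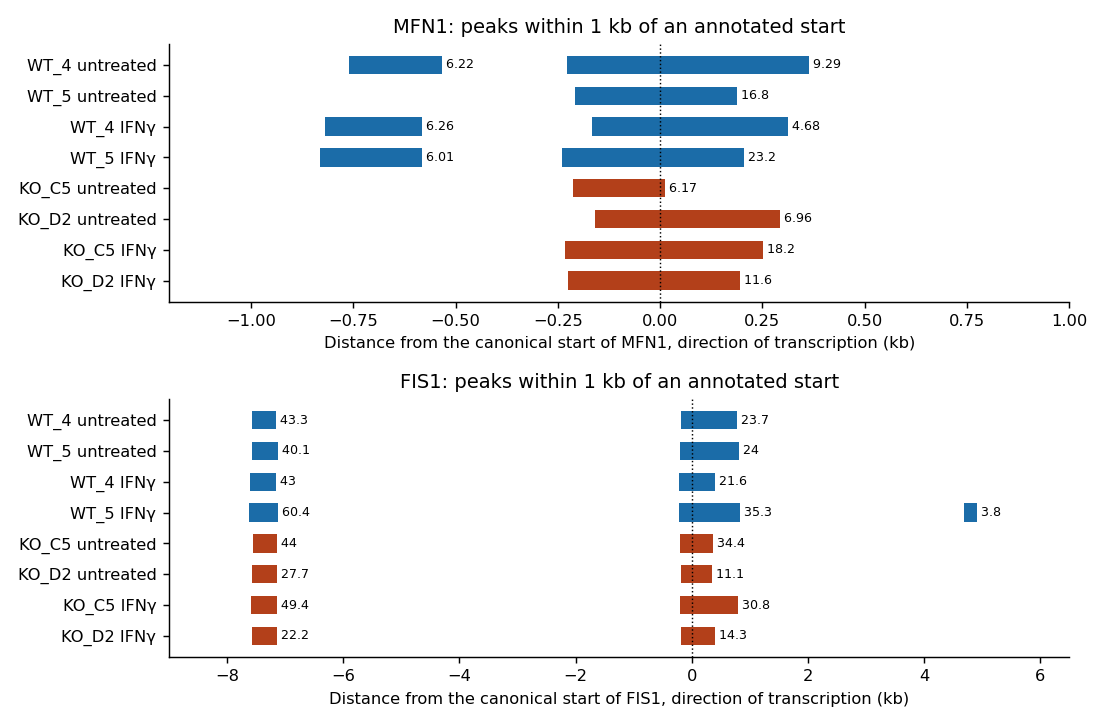
Peaks within 1 kb of an annotated start of MFN1 (top) and FIS1 (bottom) in each library (rows), drawn by distance from the canonical start in kb, with WT in blue, KO in orange-red and the fold enrichment printed beside each bar. FIS1 showed both open regions in all 8 libraries, and MFN1 showed a second, upstream peak in 3 WT libraries and no KO library.

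MFF had a single open region in its gene body and flanks (chr2:227325010-227325675), and it also covers the start of the divergent long non-coding RNA MFF-DT, 25 bases from the MFF start, so the signal cannot be assigned to either gene. Folds were 30.0 (WT_4) and 26.4 (WT_5) in untreated WT, 26.0 and 49.8 in WT after IFNγ, 12.7 (KO_C5) and 20.2 (KO_D2) in untreated KO, and 22.5 and 23.8 in KO after IFNγ. All 4 WT values were above all 4 KO values. This held for 1 of the 8 members and for 23.7% of all 14006 promoters with a peak in every list (the reverse held for 0.0143%), and MFF's percentiles overlapped, at 67.8 to 89.4 in WT and 52.8 to 84.4 in KO.

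The adaptors MIEF1 and MIEF2 sit on different chromosomes. At MIEF1 (chr22:39502019-39502724) folds were 42.6 (WT_4) and 33.0 (WT_5) in untreated WT, 25.9 and 54.1 in WT after IFNγ, 19.2 (KO_C5) and 19.8 (KO_D2) in untreated KO, and 33.8 and 23.5 in KO after IFNγ. At MIEF2 (chr17:18260334-18261448) they were 30.1 (WT_4) and 42.0 (WT_5) in untreated WT, 18.9 and 61.6 in WT after IFNγ, 13.7 (KO_C5) and 19.2 (KO_D2) in untreated KO, and 33.6 and 26.0 in KO after IFNγ. In both genes untreated KO lay below untreated WT, and the treated groups overlapped. The untreated folds of MFF and MFN1 had the same order, as did the median fold over all promoters. That order was therefore not particular to the adaptors. The percentiles of the adaptors, 74.0 to 94.7 at MIEF1 and 57.8 to 91.4 at MIEF2, overlapped between genotypes.

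Of the fusion genes, MFN2 had the steadiest peak of the set. Its region (chr1:11979947-11980736) also covers the start of an unnamed antisense long non-coding RNA. Folds were 57.7 (WT_4) and 54.2 (WT_5) in untreated WT, 49.1 and 73.7 in WT after IFNγ, 57.1 (KO_C5) and 50.5 (KO_D2) in untreated KO, and 47.4 and 36.3 in KO after IFNγ. The genotypes overlapped, and MFN2 ranked first among the members in 6 of the 8 libraries. Its percentile range of 8.24 points was smaller than that of most promoters, whose median range was 22.9, and 13.2% of promoters had a smaller one.

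MFN1, its partner in outer membrane fusion, was the opposite case. Folds were 9.29 (WT_4) and 16.8 (WT_5) in untreated WT, 6.26 and 23.2 in WT after IFNγ, 6.17 (KO_C5) and 6.96 (KO_D2) in untreated KO, and 18.2 and 11.6 in KO after IFNγ. The corresponding percentiles were 38.0 and 70.3, 18.4 and 74.1, 21.8 and 26.3, and 69.3 and 64.2. Both KO clones were thus higher after IFNγ, while the WT clones differed from each other more than either changed with treatment. The percentile range of 55.7 points was wider than that of 94.1% of promoters.

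The MFN1 signal had 2 parts. A peak over the canonical TSS (chr3:179347469-179348073) was present in all 8 lists. A second peak, 647 to 727 bases upstream (chr3:179346878-179347176), was listed in WT_4 untreated, WT_4 after IFNγ and WT_5 after IFNγ, with folds of 6.22, 6.26 and 6.01, and in no KO list. It was the stronger of the pair in WT_4 after IFNγ, where the peak over the TSS had a fold of 4.68 and a percentile of 7.46. Of the 20 regions in or within 10 kb of the members this was the only one with a peak in 3 or 4 WT libraries and no KO library, a pattern held by 0.985% of 52105 merged regions genome-wide. The reverse pattern was held by none of the 20 and by 0.129% genome-wide. The upstream peak rested on 10 fragments at its summit in WT_4 after IFNγ, and its absence from a list does not show closed chromatin.

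OPA1 had one open region at its starts (chr3:193592879-193593466), shared with the antisense starts of ATP13A4, 97 bases away, and of a pseudogene. Folds were 22.3 (WT_4) and 45.1 (WT_5) in untreated WT, 28.8 and 71.2 in WT after IFNγ, 9.44 (KO_C5) and 25.2 (KO_D2) in untreated KO, and 35.6 and 31.1 in KO after IFNγ. The fold of OPA1 was higher after IFNγ in all 4 clones, as at 5.93% of promoters and at no other member. On the centred scale MFF was also higher in all 4 clones (9.25% of promoters). By percentile both MFF and FIS1, the latter at its upstream start, were (16.5%). The percentiles of OPA1 were 61.7, 89.4, 45.1 and 79.4 in the untreated clones WT_4, WT_5, KO_C5 and KO_D2. They were 74.9, 94.6, 87.7 and 92.7 in the same clones after IFNγ, and the treatment groups overlapped.

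**Figure D3:**
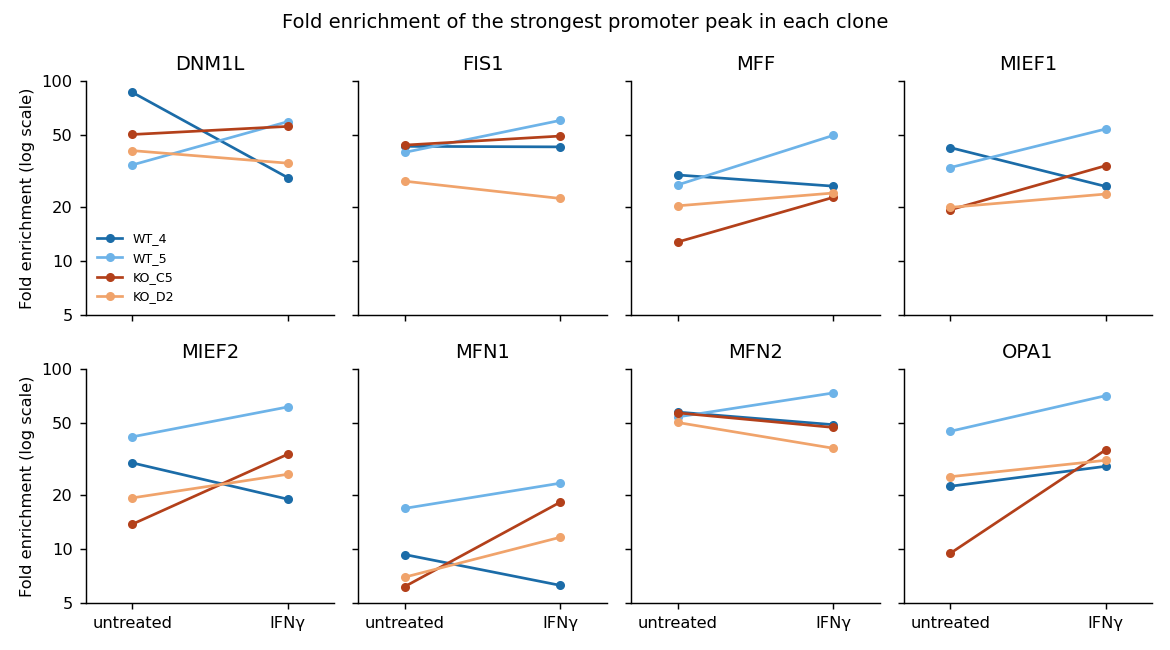
Fold enrichment of the strongest promoter peak of each gene (panels, log scale) in untreated and IFNγ-treated cells, with a line for each of the 4 clones. Lines of the WT clones (blue) and the KO clones (orange) cross or overlap in most panels, and all 4 lines rise at OPA1 in fold as deposited, whereas on the centred scale MFF was also higher in all 4 clones.

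The knockout comparison asks whether loss of ZBTB48 altered openness at these promoters. Log2 fold enrichment was centred on the median of each library and tested with limma, genotype on the means of the 4 clones, treatment on the 8 libraries with genotype in the model, and the difference in response on the within-clone changes. None of the 14006 promoters passed a Benjamini-Hochberg adjusted p of 0.05 for genotype (0% called, 964 promoters or 6.88% at an unadjusted p under 0.05), and none of the 8 members had an unadjusted p under 0.05. The member differences, WT minus KO on the log2 scale, ran from −0.49 (SE 0.23) at DNM1L to 0.17 (SE 0.44) at OPA1, 4 positive and 4 negative, with limma adjusted p of 0.708 to 0.966. Their median was −0.02, beside −0.01 over all promoters. The DNM1L value was −0.25 without WT_4 after IFNγ and −0.72 without WT_4 untreated. By percentile, no member had every WT library above every KO library (6.75% of promoters) or every KO library above every WT library (0.307%). Intervals of 2 SE around the member differences reached from −1.14 (MFN1) to 1.05 (OPA1), so with 2 clones per genotype sizeable differences in either direction were not excluded by these data.

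Without centring, the median promoter was higher in WT by 0.57 on the log2 scale, all 8 member differences were positive with a median of 0.56, and 689 promoters but no member passed (limma adjusted p for members 0.234 to 0.881). DNM1L, FIS1, MFN1 and MFN2 were therefore lower in WT on the centred scale and higher in WT in fold enrichment as deposited, and neither direction was called. By percentile the differences, WT minus KO, were 3.27 points at FIS1, 4.81 at MFN1, −0.40 at DNM1L and −1.83 at MFN2.

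The fold enrichment was resolved into its parts, the fragments at the summit and the local background, and each part was compared between genotypes. Both follow from the deposited fold and −log10 p under the Poisson model of the peak caller, and every member peak was matched by a whole number of fragments. Summit pileups overlapped between genotypes at all 8 members. At OPA1 they were 47 (WT_4), 104 (WT_5), 51 (WT_4, IFNγ) and 153 (WT_5, IFNγ) in WT, and 33 (KO_C5), 78 (KO_D2), 132 (KO_C5, IFNγ) and 146 (KO_D2, IFNγ) in KO. Over all promoters the pileup was higher in every WT library at 0.179% and in every KO library at 0.157%. The local background was higher in every KO than in every WT library at 4 of the 8 members, MFF, MIEF1, MIEF2 and OPA1. The same held at 58.6% of promoters, and the reverse at no member and at 0.186% of promoters. Background at OPA1 ranged over 0.803 to 1.33 fragments (WT) against 2.13 to 3.73 (KO), and at MIEF2 over 0.998 to 1.55 against 2.13 to 3.47. DNM1L was the member whose mean background was not higher in KO, with ranges of 1.51 to 2.87 (WT) and 1.39 to 2.33 (KO). Neither pileups nor backgrounds are corrected for depth, which the lists do not give. The part of depth in the genotype differences was not tested. Intervals of the pileups would cover counting error only.

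**Figure D4:**
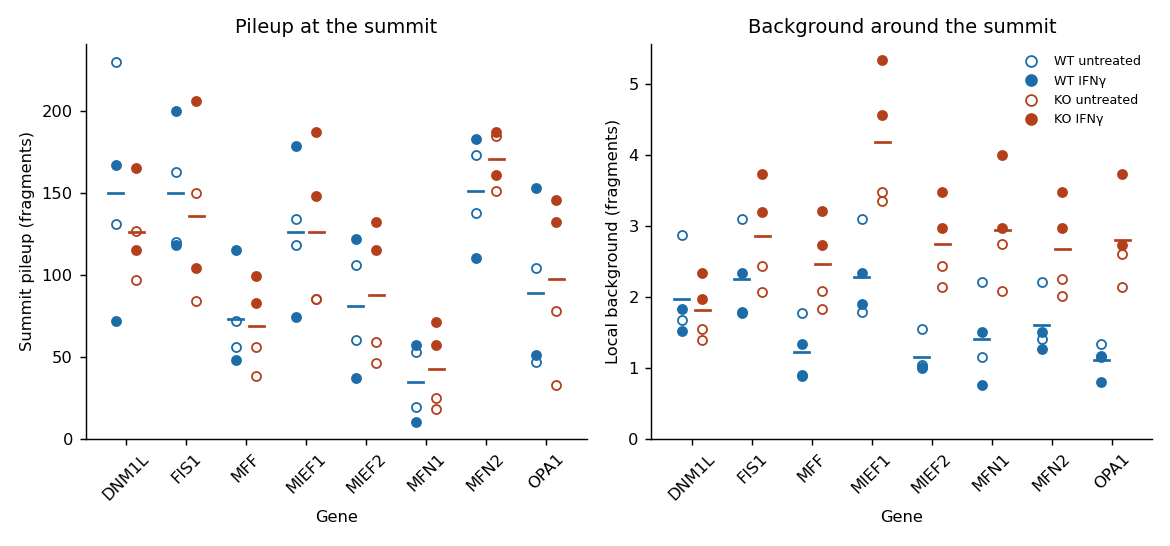
Summit pileup (left) and local background (right), both in fragments, at the strongest promoter peak of each gene, with 1 point per library (open untreated, filled IFNγ, WT blue, KO orange-red) and a bar at the mean of the 4 libraries of a genotype. Pileups overlapped between genotypes at all 8 genes, and the background points of KO lay wholly above those of WT at MFF, MIEF1, MIEF2 and OPA1. Neither measure is corrected for depth.

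The treatment comparison asks whether IFNγ changed openness at these promoters. No promoter passed for IFNγ (limma, 0% called at an adjusted p of 0.05, 624 promoters or 4.46% at an unadjusted p under 0.05), and no member had an unadjusted p under 0.05. Differences, IFNγ minus untreated, were positive at 6 of the 8 members (38.8% of all promoters) with 0.80 at OPA1 (SE 0.39, limma adjusted p = 0.800). That value was 0.43 without KO_C5 untreated and 1.13 without WT_5 untreated. MFN1 followed with 0.54 (SE 0.38) and MFF with 0.43 (SE 0.24), and DNM1L and MFN2 were negative at −0.23 (SE 0.21) and −0.15 (SE 0.17). With the clone as a replicate block, which the labels' pairing allows, 9 promoters passed (0.0643%), all higher after IFNγ, and no member was among them. In that limma fit OPA1 (adjusted p = 0.102) and MFF (adjusted p = 0.220) were under 0.05 before adjustment, 2 of 8 members beside 17.9% of promoters. By percentile, IFNγ libraries were above untreated libraries throughout at no member and at 0.942% of promoters, and below at no member and at 0.0785%.

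**Figure D5:**
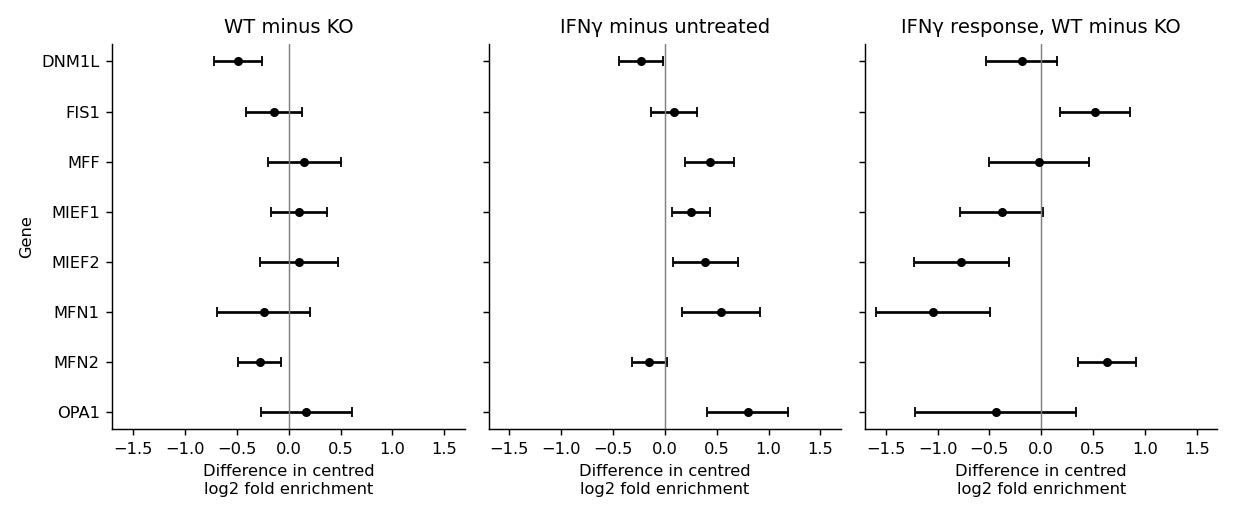
Differences in centred log2 fold enrichment of the strongest promoter peak of each gene, for WT minus KO, for IFNγ minus untreated and for the IFNγ response of WT minus that of KO, each with its standard error from limma. None passed the adjusted threshold, and the widest errors were at OPA1 and MFN1.

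Within clones, the members moved upward in rank most in the KO clones. After IFNγ the percentile was higher at 7 of 8 members in KO_C5 and in KO_D2, with median changes of 20.3 and 13.2 points. The same changes over all promoters were 2.53 and 6.22 points, with 65.1% and 82.1% of promoters higher. In WT_5 all 8 members were higher, by a median of 3.96 points (2.75 over all promoters, 78.0% higher), and in WT_4 4 of 8 were, with a median change of 0.685 (−2.82 over all promoters, 32.3% higher). MFN1 gained 47.5 and 38.0 points in KO_C5 and KO_D2, OPA1 42.7 and 13.3, and MIEF2 29.3 and 19.3. With IFNγ the lists lengthened from 19255 to 27457 peaks in KO_C5, from 16730 to 24727 in KO_D2 and from 29567 to 37533 in WT_5. In WT_4 the list shortened, from 21715 to 18913 peaks. The members' median percentile without treatment was 65.9 in KO_C5, 78.7 in KO_D2, 75.9 in WT_4 and 89.8 in WT_5. The part of list length and of starting rank in these changes was not tested.

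The difference in response between genotypes was tested directly. No promoter passed (limma, 0% called, 1287 promoters or 9.19% at an unadjusted p under 0.05). On the centred log2 scale, of the members MFN2 alone had an unadjusted p under 0.05. Its response in WT minus that in KO was 0.63 (SE 0.28, limma adjusted p = 0.513). MFN1 had the most negative value, −1.04 (SE 0.55, limma adjusted p = 0.567), then MIEF2 with −0.77 (SE 0.46, limma adjusted p = 0.631). With limma on percentiles, MFN1 (−50.67 points) and MIEF2 (−26.65 points) had an unadjusted p under 0.05 and MFN2 (4.27 points) did not. That was 2 of 8 members beside 907 of 14006 promoters, and none was called. The median over all promoters was −5.20 points.

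The members also differed in how their ranks moved together. The percentiles of MFF, MIEF1, MIEF2, MFN1 and OPA1 moved together, with Pearson correlations of 0.77 to 0.98 in their 10 pairs, while the 18 pairs with DNM1L, FIS1 or MFN2 ran from −0.29 to 0.53. These are descriptions over 8 libraries that share clones and list lengths, and the grouping was made after the values were seen. For the strongest peak, DNM1L, FIS1 and MFN2 also had the narrowest percentile ranges, 15.3, 14.1 and 8.24 points. The others had 20.7 (MIEF1) to 55.7 (MFN1). The FIS1 values are those of its upstream start, and the peak over its canonical TSS ran from percentile 40.8 to 83.2. Correlations of other promoters are not given beside those of the members, so the values show nothing particular to the members. The members' median percentile was 65.9 in untreated KO_C5, the lowest library, and 94.5 in WT_5 after IFNγ, the highest, where the medians of all promoters were 73.2 and 86.0. Among genes with another peak, the percentiles most like those of MFN1 over the 8 libraries were those of MTAP and of an unnamed long non-coding RNA with which it shares a peak (root mean square distance 3.32 points each), followed by the long non-coding RNA LINC00867 (4.89 points).

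Beyond the members' promoters few peaks were listed, which does not show that the chromatin there was closed. The 8 gene bodies with 10 kb on either side span 483577 bases and held 20 regions, 11 within 1 kb of a member's own start, 4 at starts of other genes and 5 elsewhere. Of the 20, 12 had a peak in every library (22.2% of merged regions genome-wide) and 5 in a single library (38.9%). The regions at other genes' starts were those of YARS2 beyond DNM1L, ATF4 beyond MIEF1, FLII beside MIEF2 and MIIP beyond MFN2, and the last 3 were present in every library. ATF4, a transcription factor of the integrated stress response, had folds of 9.90 to 66.9 at its start.

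The 5 remaining regions were weak or scattered. Upstream of MIEF1 one lay 11931 bases from the canonical TSS and was listed in WT_5 under both treatments and in KO_C5 after IFNγ, with folds of 8.44 to 10.8. The other 4 were each listed in 1 WT library with folds of 3.98 to 5.56, of which 2 were at DNM1L and 2 in introns of OPA1. No region was found in introns of MFN1, MFN2 or MFF away from their starts.

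The number of peaks over the 8 members and their flanks was 14 (WT_4), 16 (WT_5), 15 (WT_4, IFNγ) and 17 (WT_5, IFNγ) in WT, and 13 (KO_C5), 14 (KO_D2), 15 (KO_C5, IFNγ) and 13 (KO_D2, IFNγ) in KO. Averaged by clone, WT held 15.5 ± 1.41 and KO 13.8 ± 0.354 peaks (SD over 2 clones), and the difference of 1.75 gave an exact permutation p of 0.333, the smallest possible with 6 assignments. After IFNγ the count was 15.0 ± 1.63 against 14.2 ± 1.26 without it (SD over 4 libraries, exact permutation p = 0.629, two-sided, smallest possible 0.0286). With each list restricted to its 16730 strongest peaks the genotype difference was −0.500. That restriction also removes the weaker peaks of the longer lists, and the part of list length in the count was not tested.

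Genes that act on fission and fusion were examined as lists chosen by function. Of 24 regulators, 17 had a promoter peak in all 8 lists (70.8%) and 7 in some, and of the 7 subunits of MICOS, the complex that shapes cristae junctions, 6 did and 1 was in some. No gene of either list passed for genotype, IFNγ or the difference in response (limma, lowest adjusted p 0.784, 0.800 and 0.465 for regulators and 0.751, 0.800 and 0.394 for MICOS). An unadjusted p under 0.05 for the difference in response was found at 3 of 17 regulators and 1 of 6 MICOS genes, beside 9.19% of promoters, and at none for genotype or treatment. The median difference, WT minus KO, was −0.15 over regulators and −0.21 over MICOS genes, against −0.01 over all promoters.

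The gene with non-overlapping percentiles was AFG3L2, a mitochondrial inner membrane protease, at 97.1 to 98.7 in WT and 99.6 to 99.8 in KO. It was 1 of 17 regulators, beside 0.307% of promoters with KO above WT, and no regulator had WT above KO (6.75% of promoters). On the centred log2 scale its difference, WT minus KO, was −0.26 (limma adjusted p = 0.812). Several genes lacked a peak in some lists. PHB2, a prohibitin that scaffolds the inner membrane, and SLC25A46, an outer membrane protein, each lacked one in untreated KO_C5 only. INF2, a formin that drives actin assembly at constriction sites, lacked one in both KO_D2 libraries. MTFR2 had one in all KO and only the WT_5 libraries, and the MICOS subunit APOOL lacked one in both WT_4 libraries and in untreated KO_C5. MIGA1, a fusion factor of the outer membrane, was listed in 4 libraries and PLD6, a mitochondrial phospholipase, in 5.

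MTFP1, the gene that links ZBTB48 to this process, differed from the members in presence. A peak over its canonical TSS was listed in WT_5 untreated (fold 6.11), WT_4 after IFNγ (7.23) and WT_5 after IFNγ (12.0), and in no KO library. A second peak, with its summit 930 to 978 bases downstream of the TSS, was listed in both WT_5 libraries (folds 7.88 and 13.0) and in KO_C5 after IFNγ (5.73). The weakest member, MFN1, had a peak over its canonical TSS in all 4 KO libraries, with folds of 6.17 to 18.2.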

How the data were processed

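FAIRE-seq was measured in 8 libraries, 1 untreated and 1 IFNγ library of each of 4 U2OS clones. Per the methods and labels, the authors trimmed reads (Trimmomatic), aligned them to GRCh38 with Bowtie2 (2.2.5), filtered on mapping quality in SAMtools (1.14) and ran MACS2 (2.2.7.1) in paired-end mode, 1 list per library. Whether input DNA served as the control, and how duplicates were treated, is not given in the sources used here. The deposited fold is a ratio of summit pileup to local background, with a pseudocount of 1 added to both (inferred from the values, since whole pileups then fit), which lowers folds where the background is near 1, and the deposited −log10 p and −log10 q come from the caller. Peak lists give no read totals, so depth is unknown; a value read off a peak carries counting error only.

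Peaks were matched to GENCODE 44 starts on chromosomes 1 to 22 and X. Log2 folds were centred on the library median over promoters with a peak in all 8 lists and fitted with limma (3.58.1, R 4.3.3, trend), with Benjamini-Hochberg adjustment over all promoters. Filtering on presence in all lists leaves out genes open in 1 genotype alone. Counts of peaks were compared by exact permutation tests in Python (3.11.15), two-sided. Summit pileups were solved with a tolerance of 0.002 in −log10 p. Limma and the pileup code were tested on simulated data. The study calls the clones independent. P-values for genotype and for the difference in response measure only the spread between these clones. Those for IFNγ measure only the spread between these libraries.

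Per the labels, each clone's libraries form a pair across treatment, and their deviations from the group means correlated (r = 0.73 in WT and 0.42 in KO). WT and KO clones share only a number. Members, gene lists, motifs and tests were chosen with earlier results of these data known. Named genes were the 8 members, MTFP1, list genes whose percentiles did not overlap between genotypes or that lacked a promoter peak in at least 1 list, and the 3 genes closest in percentile to the member of widest range. Promoter sequences are from RefSeq (GRCh38.p14), except the FIS1 upstream start, read from GRCh38. Alternatives changed the scaling, the measure, the lowest −log10 q (3), the list length, the promoter window, the peak and start chosen, the flank (5 kb), the overlap of regions (0.5), the clone block and each library in turn. Restriction to protein-coding genes was added after the data were seen.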

Additional observations from a re-analysis of the deposited data

Results flagged for a closer look

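FIS1 and MFN2 were noted because, on 1 measure each, the WT clones moved one way with IFNγ and the KO clones the other. At FIS1 the centred log2 fold changed by 0.63 in WT_4, 0.08 in WT_5, −0.08 in KO_C5 and −0.26 in KO_D2, and the difference in response between genotypes was not called (limma adjusted p = 0.653). By percentile the upstream start of FIS1, its strongest peak, was higher after IFNγ in all 4 clones, by 10.1, 2.15, 4.12 and 2.38 points in the same order. Over the canonical TSS the percentile fell from 82.2 to 81.9 in KO_C5 and rose in the other clones. With canonical starts only, the FIS1 difference in response was 0.26 on the log2 scale, against 0.52. At MFN2 the percentile changed by 5.53 points in WT_4, 0.148 in WT_5, −1.19 in KO_C5 and −1.66 in KO_D2, and the difference in response on the log2 scale was not called either (limma adjusted p = 0.513). On the centred log2 scale MFN2 went from 0.89 to 0.82 in WT_5, the direction of both KO clones. In both genes the WT_4 change was several times that of WT_5. No member had a library that stood apart from the other 3 of its group by Dixon's criterion.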

How the results depend on the processing

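All 8 members had a promoter peak in every list with a −log10 q of at least 3, with equal lists, with a window of 500 bp and with canonical starts. The 2 kb window and leaving out a library were also run, but neither could lower this count. The count of promoters called for genotype was 0 except without centring, where it was 689. For IFNγ it was 0 except without centring (1) and with the clone as a replicate block (9), which changed no member's call. For the difference in response it was 0 except with the 500 bp window (1). No library left out gave a call for genotype or IFNγ. Percentiles of members did not overlap in 0 cases, and in 1 each when WT_5 untreated (MFF) or WT_4 after IFNγ (MIEF1) was left out, both with IFNγ above untreated, so the leave-one-out range was 0 to 1.

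No member difference was called under any alternative, and of 328 alternative values 16 changed sign. Without centring the genotype difference became 0.08 at DNM1L, 0.44 at FIS1, 0.33 at MFN1 and 0.30 at MFN2 (log2). In percentile points it was 3.27 at FIS1 and 4.81 at MFN1, and the IFNγ difference at MFN2 was 0.71. Leaving out a library gave genotype ranges of −0.29 to 0.02 at FIS1, −0.03 to 0.24 at MIEF1, −0.16 to 0.36 at MIEF2, −0.56 to 0.09 at MFN1 and −0.24 to 0.59 at OPA1, and an IFNγ range of −0.02 to 0.28 at FIS1. The count of peaks in the gene bodies and flanks, IFNγ minus untreated, was 0 with a −log10 q of at least 3, and with equal lists both differences were −0.500. The cause was not tested. Joining regions at an overlap of 0.5 left 20 regions. Depth is unknown, and 2 clones per genotype limit every comparison.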
